A study of Homo sapiens with 9 samples.

Results

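The genes described here are 32 genes of cholesterol and fatty acid synthesis, followed through 6 days of exposure of a cancer cell line to EPZ-6438, which blocks the enzyme activity of EZH2, a histone methyltransferase. The members were taken by symbol, from a list drawn up with earlier results of these data known: 5 regulators of the pathway, 7 enzymes of the mevalonate pathway, 11 enzymes that turn its product into cholesterol, 1 sterol transfer protein, 7 enzymes of fatty acid synthesis and 1 enzyme that feeds acetoacetate into both routes. All 32 were found among the 35762 gene symbols of the table, and all 32 were among the 15345 genes with enough counts to be tested. The cells were TYUC-1, an established human line from a neuroendocrine esophageal carcinoma, grown in suspension in medium that contained serum. Messenger RNA was sequenced in 3 biological replicates each on day 0, day 3 and day 6. In the labels, EPZ-6438 is the treatment of all 9 libraries, those of day 0 included. The protocol names 2 uM EPZ-6438 or DMSO, the vehicle, but not whether the day 0 cells had received DMSO. No vehicle library from day 3 or day 6 was analysed here, so the inhibitor and the days in culture cannot be told apart in any comparison. All cells came from 1 line, and none carries a labelled genetic change.

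Cells make cholesterol and fatty acids from acetyl-CoA, and both routes share one switch. The SREBP transcription factors, encoded by SREBF1 and SREBF2, are held in the endoplasmic reticulum as inactive precursors. The escort protein SCAP carries them to the Golgi, where proteases release the active part, and the INSIG proteins hold SCAP back when sterols are plentiful. Released SREBP enters the nucleus and switches on most genes of both pathways, its own genes and INSIG1 among them, usually together with the factors NF-Y and SP1. SREBP-2 is known mainly for the sterol enzymes and SREBP-1 mainly for the fatty acid enzymes. EZH2 places a repressive methyl mark on histone H3.

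Libraries held 21638874 to 31235055 estimated counts, and the members together took 0.554 to 0.632% of the counts on day 0, 0.723 to 0.745% on day 3 and 0.679 to 0.709% on day 6. Levels below are in CPM, each count scaled by the TMM-normalised size of its library. EZH2 itself lay at 190 to 197 CPM on day 0, 165 to 169 on day 3 and 141 to 156 on day 6. Of 7 neuroendocrine markers, the defining marker CHGA was at 0 in every library, and the sum of the list was 125 to 138 CPM on day 0 and 88.2 to 92.6 CPM on day 6. Markers of 5 simple epithelial genes summed to 1520 to 1890 CPM. Markers of lipid-making cell types were near 0: the 5 adipocyte genes summed to at most 1.72 CPM with FABP4 and CIDEC at 0, and the 5 hepatocyte genes to at most 0.431 CPM with FGB at 0. The 5 endothelial genes stayed at or below 2.24 CPM with CLDN5 at 0. The 5 fibroblast genes summed to 0.808 to 1.46 CPM on day 0 and 10.1 to 12.2 CPM on day 6, most of it COL1A1. The 5 leukocyte genes summed to 488 to 643 CPM on day 0 and 326 to 329 CPM on day 6, nearly all of it LYZ, while CD3E was at 0 on day 0 and day 6. The 5 squamous basal genes summed to 1.11 to 1.31 CPM on day 0, 0.602 to 1.83 on day 3 and 6.56 to 7.88 on day 6. Most of the sum was KRT5 on day 0 and day 6. KRT5 was called lower on day 3 and higher on day 6, and TP63 was called higher on both days. KRT14, KRT6A and DSG3 had too few counts to be tested. The part of these lists in the results below was not tested.

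One library stood apart before any comparison was made. Replicate 2 of day 0 held the lowest of the 3 day 0 levels for 14 members and the highest for the other 18, so it was never in the middle. Over all genes tested it was lowest for 5551 and highest for 7382 of 15345. The median coefficient of variation of the members was 12.1% on day 0, 3.07% on day 3 and 6.51% on day 6, against 13.2%, 5.32% and 8.04% over all genes tested. FASN, the multi-enzyme complex that builds palmitate, had the lowest level in this library relative to the other day 0 libraries, at 0.514 of their mean. MSMO1, a sterol demethylation enzyme, had the highest, at 1.44 times that mean. The ratio followed the GC content of the transcript, with a Spearman correlation of -0.73 over the 32 members and -0.27 over 14929 genes. Members share a library and differ in length as well, for which the correlation over the members was -0.56. In the plot of the ratio against GC content, points scatter widely about this trend: FASN lies far below 1, while TM7SF2, nearly as GC-rich, lies above 1 at 1.11 and ACACA, near the middle of the GC range, lies at 0.678. Counts of members and of related genes called against day 0 are given with and without this library. So are single values against day 0 of the genes named, where its removal changes a call or moves a called value by over 1.5 times.

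**Figure D1:**
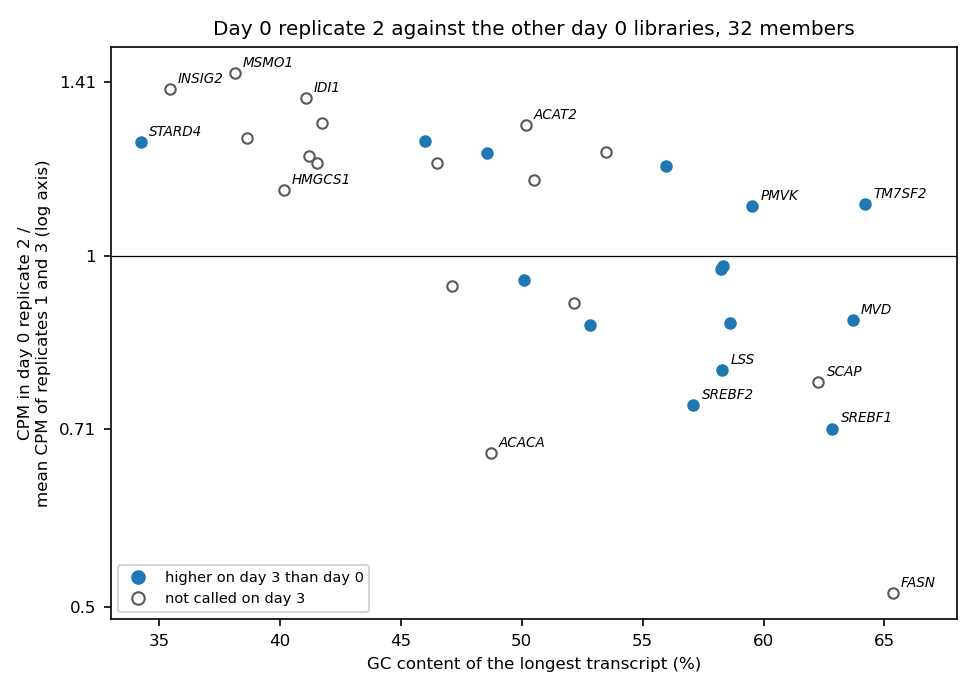
Level of each of the 32 members in replicate 2 of day 0 divided by the mean of the other day 0 libraries (log axis) against the GC percentage of its longest transcript; each point is 1 gene. FASN lies lowest at 0.514 and MSMO1 highest at 1.44, and the ratio falls as GC content rises (Spearman correlation -0.73).

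On day 3, 15 of the 32 members were higher than on day 0 and none was lower, by edgeR's quasi-likelihood test at a Benjamini-Hochberg adjusted p under 0.05. Across all 15345 genes, 22.5% were called higher and 18.1% lower, and among the 10647 genes at or above the level of the least abundant member, 18.5% were called higher and 24.8% lower. DESeq2 and limma-voom each called 16 members higher and none lower, and at an unadjusted p under 0.05 edgeR gave 17 higher and none lower. The rises were small: the median log2 fold change was 0.27 over the members against 0.01 over all genes tested, and the largest was that of FADS2, at 2.04-fold. The libraries of the 2 days did not overlap for 19 of the 32 members, or 59.4%, against 53.8% of all genes. In bulk RNA, a change in the number of cells of a type and a change in RNA per cell cannot be told apart. The plot of every library relative to day 0 shows the tight day 3 points to the right of day 0 for SREBF1, SREBF2, INSIG1, MVD, LSS, TM7SF2, DHCR7, FADS1, FADS2 and AACS.

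**Figure D2:**
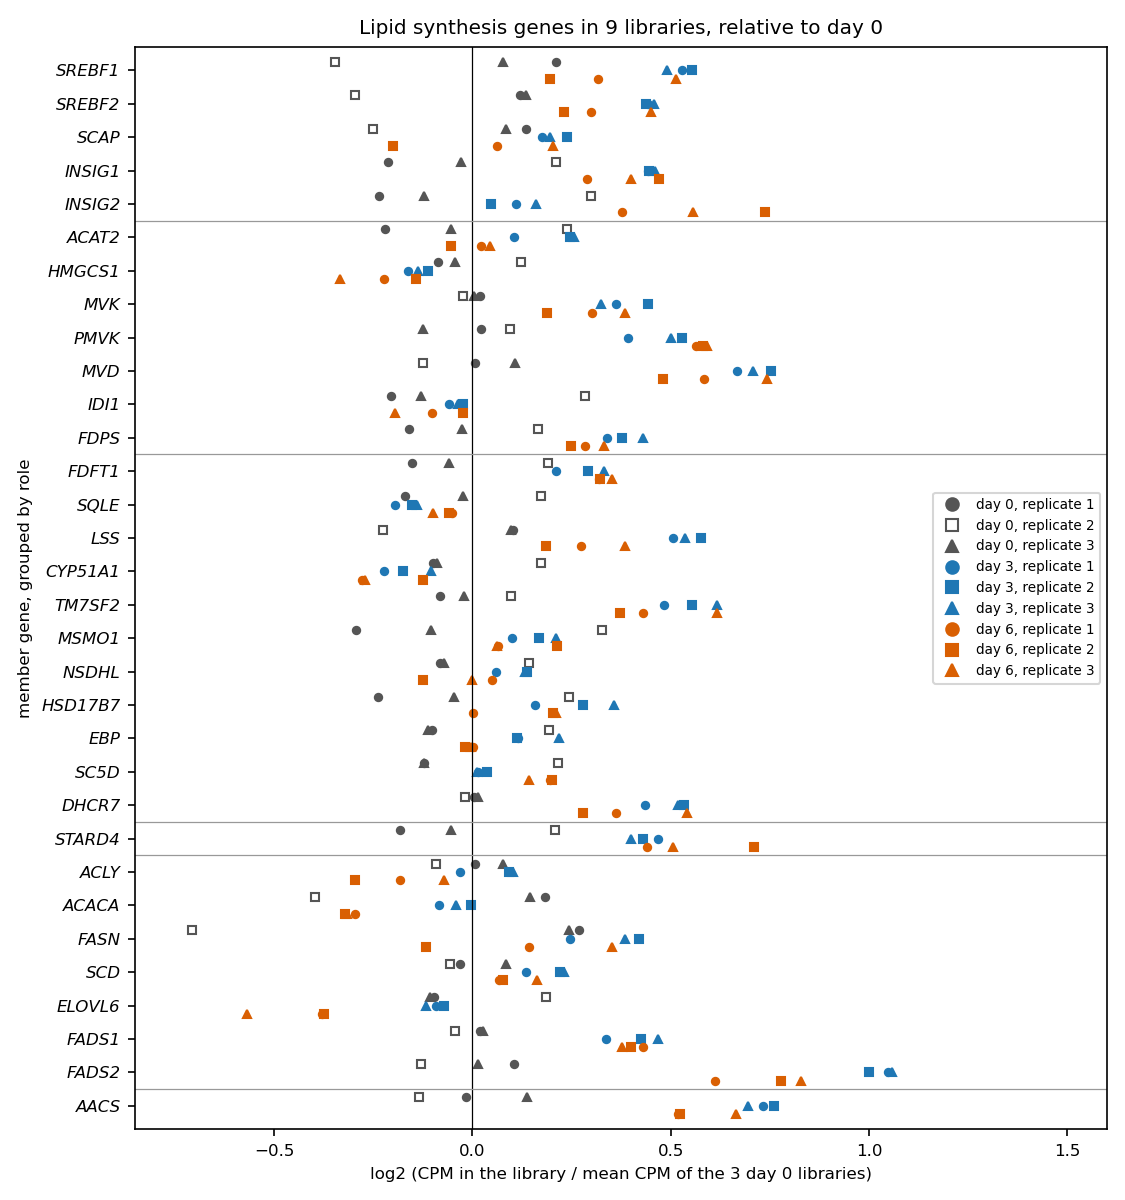
Level of each member in each of the 9 libraries as log2 of its CPM over the mean CPM of the 3 day 0 libraries, grouped by role from regulators at the top to AACS at the bottom; open squares are replicate 2 of day 0. The day 3 libraries of FADS2 lie near 1, while those of HMGCS1, SQLE and CYP51A1 lie below 0.

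The 15 members that rose on day 3 were SREBF1, SREBF2, INSIG1, MVK, PMVK, MVD, FDPS, FDFT1, LSS, TM7SF2, DHCR7, STARD4, FADS1, FADS2 and AACS. Without replicate 2 of day 0, all 15 remained and 7 others joined them (ACAT2, EBP, HSD17B7, INSIG2, MSMO1, NSDHL and SCD), giving 22 higher, while ACACA was called lower. In that fit 46.7% of all genes tested were called in either direction, against 40.6% with all 9 libraries. The 15 were GC-rich: their transcripts had a median GC content of 58.2% against 46.5% for the other 17, and the log2 fold change correlated with GC content over the members (Spearman 0.64) and over 14929 genes (Spearman 0.44), as a description. When replicate 2 of day 0 was left out, these correlations were 0.36 over the members and 0.38 over 15189 genes. With a trend on GC content and length removed, an alternative chosen after seeing the data, 20 members were higher and none lower, and 14 of the 15 were kept, all but MVK. The log2 fold changes of 7 of the 14 were smaller by over 1.5 times in that fit (SREBF1, SREBF2, PMVK, MVD, LSS, TM7SF2 and DHCR7): that of SREBF1 was 0.17 in place of 0.52, that of TM7SF2 0.21 in place of 0.55 and that of MVD 0.37 in place of 0.71. FDFT1 lost its call without replicate 1 or 3 of day 0, replicate 2 or 3 of day 3 or replicate 1 of day 6 (adjusted p 0.0505 to 0.113).

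The stretches upstream of 7 members are printed because these genes show the patterns met below: SREBF2, INSIG1, MVD, FDPS and AACS rose on both days, and HMGCS1 and ELOVL6 were lower on day 6. Each is the 180 bases before the RefSeq gene start on GRCh38.p14, written 5′ to 3′ on the strand of the gene. RefSeq and GENCODE starts differ: by the GENCODE coordinates given below for each gene, the ELOVL6 stretch lies wholly inside the gene and the other 6 lie partly inside. Capitals mark matches on either strand to TCACNCNAC (a sterol element pattern), CCAAT (the NF-Y box, ATTGG on the other strand) or CACGTG (the E-box). The stretches are at chr22:41832925-41833104, forward strand for SREBF2, chr7:155297698-155297877, forward strand for INSIG1, chr16:88663092-88663271, reverse strand for MVD, chr1:155308686-155308865, forward strand for FDPS, chr12:125065255-125065434, forward strand for AACS, chr5:43313413-43313592, reverse strand for HMGCS1, and chr4:110198616-110198795, reverse strand for ELOVL6.
SREBF2: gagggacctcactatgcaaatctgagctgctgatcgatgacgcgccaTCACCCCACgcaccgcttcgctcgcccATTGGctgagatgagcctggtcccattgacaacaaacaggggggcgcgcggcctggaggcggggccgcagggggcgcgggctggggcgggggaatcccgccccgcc
INSIG1: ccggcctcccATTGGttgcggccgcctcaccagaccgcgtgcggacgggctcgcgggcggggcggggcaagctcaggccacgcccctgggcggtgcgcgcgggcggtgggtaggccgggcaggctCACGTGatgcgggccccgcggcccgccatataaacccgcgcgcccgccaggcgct
MVD: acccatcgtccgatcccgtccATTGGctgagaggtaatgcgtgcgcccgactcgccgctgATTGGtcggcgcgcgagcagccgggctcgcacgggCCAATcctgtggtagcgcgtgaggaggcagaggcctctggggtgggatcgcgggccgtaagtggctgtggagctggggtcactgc
FDPS: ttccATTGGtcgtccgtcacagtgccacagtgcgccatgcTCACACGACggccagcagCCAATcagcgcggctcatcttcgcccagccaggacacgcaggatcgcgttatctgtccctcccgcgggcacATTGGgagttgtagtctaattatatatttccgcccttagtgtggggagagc
AACS: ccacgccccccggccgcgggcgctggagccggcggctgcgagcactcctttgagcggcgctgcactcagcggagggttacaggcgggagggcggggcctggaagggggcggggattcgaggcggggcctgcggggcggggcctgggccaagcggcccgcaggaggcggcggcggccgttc
HMGCS1: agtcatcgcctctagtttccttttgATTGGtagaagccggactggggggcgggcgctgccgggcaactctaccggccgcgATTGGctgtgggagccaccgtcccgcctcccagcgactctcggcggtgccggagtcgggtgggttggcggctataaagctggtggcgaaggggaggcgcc
ELOVL6: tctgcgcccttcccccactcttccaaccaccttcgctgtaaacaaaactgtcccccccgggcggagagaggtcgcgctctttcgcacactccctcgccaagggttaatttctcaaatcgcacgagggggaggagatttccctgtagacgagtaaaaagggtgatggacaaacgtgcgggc

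SREBF2 and FDPS hold a sterol element match with a CCAAT box beside it, INSIG1 holds a CCAAT box and an E-box, and MVD holds 3 CCAAT boxes. HMGCS1, which did not rise, holds 2 CCAAT boxes, and the stretches of AACS and ELOVL6 hold none of these 3 motifs. All motifs were searched on both strands, and GGGCGG matches are not in capitals. In RefSeq promoter windows of 300 bases, from 250 before to 50 after the start, 28 of the 32 members had an entry; ACAT2, FDFT1, SQLE and FASN were not matched. CCAAT was in 20 of 28 members (71.4%) against 39.7% of 27305 genes, and GGGCGG, the core of the SP1 box, in 27 of 28 (96.4%) against 48.3%. TCACNCNAC was in 4 members (14.3%: SREBF2, FDPS, HSD17B7 and FADS2) against 3.13% of genes, the narrower TCACNCCAC, whose matches are all matches of TCACNCNAC too, in SREBF2 alone against 1.39%, and CACGTG in 4 members (14.3%) against 8.77%. CCAAT did not separate the members that moved: it was in 10 of the 14 members with a window that rose on day 3 and in 10 of the other 14. The 27305 genes are all those with a window, whether or not they were tested here, and a gene counts if any of its windows matches. These are matches of letters in a window and not measured binding.

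Among the regulators, both SREBP genes and INSIG1 rose on day 3, with 3 of 5 called higher against 22.5% of all genes tested. SREBF2 (chr22:41833079-41907308 on GRCh38, forward strand), the gene of the sterol-directed SREBP, was read at 824, 617 and 832 CPM on day 0, 1030.2, 1027 and 1041 on day 3 and 933, 889.9 and 1035 on day 6. Every day 3 library lay above every day 0 library, and the day 0 replicate 2 value was the lowest of all 9. The log2 fold change was 0.45 ± 0.11 (SE), adjusted p = 0.00773 on day 3 and 0.33 ± 0.11 (SE), adjusted p = 0.0247 on day 6. SREBF1 (chr17:17810399-17837002, reverse strand), the gene of the SREBP that drives fatty acid enzymes, was read at 141, 95.5 and 128 CPM on day 0, 175, 178 and 171 on day 3 and 151, 139 and 173 on day 6. Its day 3 libraries were all higher than day 0, and its day 6 libraries overlapped day 0. The log2 fold change was 0.52 ± 0.13 (SE), adjusted p = 0.00662 on day 3 and 0.35 ± 0.13 (SE), adjusted p = 0.0357 on day 6. SREBF1 shares 556 exonic bases with RAI1 on the opposite strand and SREBF2 shares 280 with an antisense RNA, and use of strand in counting is not stated. The day 6 call of SREBF1 was lost when replicate 2 of day 0, any day 3 library or replicate 1 or 3 of day 6 was left out (adjusted p 0.0527 to 0.168). With replicate 2 of day 0 left out, its day 6 value was 0.19 (adjusted p = 0.0575). The day 6 call of SREBF2 was lost without replicate 1 or 3 of day 6 (adjusted p 0.0552 to 0.111), and its value was 0.19 (adjusted p = 0.022) without replicate 2 of day 0.

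INSIG1 (chr7:155297776-155310235, forward strand), the sterol-sensitive retention factor and itself an SREBP target, was read at 128, 172 and 146 CPM on day 0, 203, 203 and 205 on day 3 and 182, 206 and 196 on day 6. All 6 later libraries lay above all 3 day 0 libraries, and here replicate 2 was the highest day 0 value. The log2 fold change was 0.45 ± 0.10 (SE), adjusted p = 0.00406 on day 3 and 0.39 ± 0.10 (SE), adjusted p = 0.00588 on day 6. INSIG2 (chr2:118088452-118110997, forward strand), the related retention factor, was read at 13.7, 19.8 and 14.8 CPM on day 0, 17.4, 16.6 and 18 on day 3 and 20.9, 26.9 and 23.7 on day 6. Day 3 overlapped day 0, and all day 6 libraries lay above all others. The log2 fold change was 0.11 ± 0.14 (SE), adjusted p = 0.559 on day 3, 0.57 ± 0.14 (SE), adjusted p = 0.00387 on day 6 and 0.46 ± 0.13 (SE), adjusted p = 0.0373 between day 6 and day 3. Without replicate 2 of day 0, INSIG2 was called higher on day 3 as well (0.28, adjusted p = 0.0388). SCAP, the escort, was not called, with log2 fold changes of 0.20 (adjusted p = 0.181) and 0.031 (adjusted p = 0.839) in the same edgeR fit.

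In the mevalonate pathway, which makes the isoprene units of sterols, 4 of 7 enzymes rose on day 3, against 22.5% of all genes tested. These were MVK, PMVK, MVD and FDPS. They are the 3 consecutive steps that phosphorylate and decarboxylate mevalonate and the later step that joins isoprene units to farnesyl diphosphate. MVD (chr16:88651935-88663161, reverse strand), the decarboxylase, was read at 87.6, 80.0 and 93.9 CPM on day 0, 138, 147 and 142 on day 3 and 131, 122 and 146 on day 6. The lowest library of the later days was above the highest day 0 library, and the log2 fold change was 0.71 ± 0.087 (SE), adjusted p = 8.69e-05 on day 3 and 0.61 ± 0.087 (SE), adjusted p = 0.000104 on day 6. PMVK, the second kinase, had log2 fold changes of 0.47 ± 0.087 (SE), adjusted p = 0.00133 and 0.58 ± 0.087 (SE), adjusted p = 0.000158. MVK, the first kinase, had a log2 fold change of 0.38 (adjusted p = 0.00198) on day 3 and 0.29 (adjusted p = 0.00532) on day 6, and FDPS of 0.38 (adjusted p = 0.00431) and 0.29 (adjusted p = 0.0131). The annotation lists 8 pseudogenes of FDPS by symbol, and MVK overlaps MMAB on the opposite strand, so both counts are uncertain to that extent. The day 6 call of FDPS was lost without replicate 1 of day 0 or replicate 3 of day 6 (adjusted p 0.056 to 0.0622).

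The other 3 enzymes of the pathway, HMGCS1, ACAT2 and IDI1, were not called higher with all 9 libraries. HMGCS1 (chr5:43289395-43313512, reverse strand), which makes HMG-CoA and is a known SREBP-2 target, was read at 718, 831 and 740.4 CPM on day 0, 682, 706 and 694 on day 3 and 654, 692 and 605 on day 6. The libraries of day 3 and day 6 all lay below those of day 0, and the change was small. The log2 fold change was -0.14 ± 0.082 (SE), adjusted p = 0.204 on day 3 and -0.23 ± 0.082 (SE), adjusted p = 0.0319 on day 6, where it was called lower. The call was lost without replicate 2 of day 3 or replicate 1 or 3 of day 6 (adjusted p 0.0507 to 0.0915). ACAT2, the thiolase before it, had log2 fold changes of 0.20 and 0.0055, and IDI1, the isomerase before FDPS, -0.039 and -0.11. Neither passed the test on either day with all 9 libraries. ACAT2 was called higher on day 3 without replicate 2 of day 0 (0.34 on the log2 scale, adjusted p = 0.00132) and with library size scaling. ACAT2 shares exons with SOD2 and TCP1 on the opposite strand.

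Of the 11 enzymes from squalene to cholesterol, 4 rose on day 3: FDFT1, LSS, TM7SF2 and DHCR7. Across all genes tested, 22.5% were called higher. LSS (chr21:46188141-46228824, reverse strand), which closes the sterol rings, was read at 150.4, 119.8 and 149.8 CPM on day 0, 199, 209 and 203 on day 3 and 169, 159 and 183 on day 6. It was highest on day 3 and lay between day 0 and day 3 on day 6. Its log2 fold change was 0.54 ± 0.095 (SE), adjusted p = 0.000984 on day 3 and 0.28 ± 0.095 (SE), adjusted p = 0.0237 on day 6, the latter lost without replicate 1 or 3 of day 6 (adjusted p 0.0635 to 0.106) and at 0.17 (adjusted p = 0.0309) without replicate 2 of day 0. TM7SF2, a sterol reductase, had a log2 fold change of 0.55 (adjusted p = 0.000489) and 0.48 (adjusted p = 0.000635). DHCR7, the final reductase of one branch, had a log2 fold change of 0.50 (adjusted p = 0.000517) and 0.40 (adjusted p = 0.00112), and FDFT1, squalene synthase, of 0.28 (adjusted p = 0.0265) and 0.33 (adjusted p = 0.00778). These 4 enzymes do not follow one another in the pathway.

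The other enzymes of this stretch were not called higher with all 9 libraries. SQLE, the oxygen-dependent enzyme ahead of LSS, was read at 232, 293 and 256 CPM on day 0, 228, 234 and 236 on day 3 and 251, 249.9 and 243 on day 6, with log2 fold changes of -0.16 and -0.070 that did not pass the test. CYP51A1, the lanosterol demethylase, was read at 199.7, 241 and 201 CPM on day 0, 183, 189 and 199 on day 3 and 176, 196 and 177 on day 6. Its day 6 libraries were all below day 0, and the log2 fold change of -0.22 ± 0.088 (SE), adjusted p = 0.0491 was just past the threshold. The call was lost in 12 of 20 alternatives, among them leaving out replicate 2 of day 0, any day 3 library or replicate 1 or 3 of day 6 (adjusted p 0.0585 to 0.134), and CYP51A1 shares 2844 exonic bases with an overlapping gene on its own strand. Without replicate 2 of day 0, the day 6 value of CYP51A1 was -0.14 (adjusted p = 0.0645). MSMO1, NSDHL, HSD17B7, EBP and SC5D, which work on the methyl groups and double bonds of the sterol, had log2 fold changes between 0.021 (SC5D) and 0.27 (HSD17B7) on day 3 and between -0.023 (NSDHL) and 0.18 (SC5D) on day 6, and none passed with all 9 libraries. Without replicate 2 of day 0, MSMO1 (0.35 on day 3, adjusted p = 0.00128, and 0.30 on day 6, adjusted p = 0.00219) and HSD17B7 (0.40, adjusted p = 0.00243, and 0.27, adjusted p = 0.0178) were called higher on both days, EBP (0.25, adjusted p = 0.00292) and NSDHL (0.18, adjusted p = 0.0351) on day 3 and SC5D (0.29, adjusted p = 0.000412) on day 6. Over the 18 enzymes of sterol synthesis, 8 were called higher and 0 lower on day 3 (9 and 0 at an unadjusted p under 0.05, 8 and 0 by DESeq2 and by limma-voom). The share higher was 44.4%, against 22.5% of all genes tested and 18.5% of those at or above the level of the least abundant member. On day 6, 8 were higher and 2 lower (8 and 1 by limma-voom), where 28.9% and 25.7% of all genes tested were. Their median log2 fold change was 0.24 on day 3 and 0.16 on day 6.

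STARD4 (chr5:111496033-111512590, reverse strand), a soluble protein that moves cholesterol between membranes and a known sterol-regulated gene, was read at 14.7, 19.2 and 16 CPM on day 0, 23, 22.4 and 22 on day 3 and 22.6, 27.2 and 23.6 on day 6. All later libraries lay above all day 0 libraries. The log2 fold change was 0.44 ± 0.11 (SE), adjusted p = 0.00795 on day 3 and 0.56 ± 0.11 (SE), adjusted p = 0.00102 on day 6. With a GC content of 34.2% STARD4 was the most AT-rich of the 32 members.

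Among the 7 enzymes of fatty acid synthesis, the desaturases FADS1 and FADS2 were called higher on day 3 and the others were not. That share, 28.6%, is near the 22.5% of all genes tested. FADS2 (chr11:61792980-61867354, forward strand), the first desaturase of polyunsaturated fatty acids, had the lowest level of all members, at 4.41, 3.74 and 4.14 CPM on day 0, 8.46, 8.20 and 8.52 on day 3 and 6.26, 7.03 and 7.28 on day 6. The 3 days did not overlap, and day 3 was the highest. Its log2 fold change was 1.03 ± 0.11 (SE), adjusted p = 4.49e-05 on day 3 and 0.74 ± 0.12 (SE), adjusted p = 0.000229 on day 6. FADS1 (chr11:61799625-61829318, reverse strand), the later desaturase of the same route, was read at 33.7, 32.2 and 33.9 CPM on day 0, 42, 44.7 and 46 on day 3 and 44.8, 43.9 and 43.2 on day 6. It was higher than day 0 in all 6 later libraries, with a log2 fold change of 0.41 ± 0.068 (SE), adjusted p = 0.000729 on day 3 and 0.40 ± 0.069 (SE), adjusted p = 0.000395 on day 6. The 2 genes share 490 exonic bases on opposite strands.

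The central enzymes from citrate to palmitate were not called higher. FASN (chr17:82078333-82098332, reverse strand) was read at 613, 312 and 603 CPM on day 0, 604, 681 and 666 on day 3 and 563, 469 and 649.7 on day 6. Replicate 2 of day 0 was the lowest of the 9, and the other day 0 libraries lay within the range of the later days. Its log2 fold change was 0.35 ± 0.21 (SE), adjusted p = 0.199 on day 3 and 0.14 ± 0.21 (SE), adjusted p = 0.6 on day 6, with the widest standard errors among the members. When replicate 2 of day 0 was left out, the log2 fold changes were 0.092 and -0.13 (adjusted p = 0.496 and 0.312). Once the GC and length trend was removed, the day 6 value was -0.37 (adjusted p = 0.000511). ACLY, which makes cytosolic acetyl-CoA from citrate, had log2 fold changes of 0.056 and -0.18 (adjusted p = 0.085 on day 6), and ACACA, which makes malonyl-CoA, -0.043 and -0.31 (adjusted p = 0.0512). With replicate 2 of day 0 left out, both were called lower on day 6, ACLY with a log2 fold change of -0.23 (adjusted p = 0.0112) and ACACA with -0.48 (adjusted p = 3.15e-06). In that fit ACACA was called lower on day 3 too (-0.21, adjusted p = 0.00504). ACLY was also called lower without replicate 3 of day 6 (adjusted p = 0.0358). SCD, the desaturase that makes oleate, had log2 fold changes of 0.20 (adjusted p = 0.0522) on day 3 and 0.10 (adjusted p = 0.261) on day 6. All its day 3 libraries lay above all its day 0 libraries. The day 3 value passed in 7 of 20 alternatives: a mean of at least 5 CPM, DESeq2, limma-voom, library size scaling, removal of the GC and length trend, and leaving out replicate 2 or 3 of day 0 (adjusted p 0.042 to 0.0469 for the last 2). Without replicate 2 of day 0 it was 0.16 (adjusted p = 0.042).

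ELOVL6 (chr4:110045846-110199199, reverse strand), which lengthens palmitate to stearate, was the member with the deepest fall in the edgeR fit of all 9 libraries. It was read at 251, 305 and 249 CPM on day 0, 252, 256 and 247 on day 3 and 206, 207 and 181 on day 6. Day 3 overlapped day 0, and all day 6 libraries lay below the other 6. Its log2 fold change was -0.093 ± 0.092 (SE), adjusted p = 0.447 on day 3, -0.44 ± 0.092 (SE), adjusted p = 0.0017 on day 6 and -0.34 ± 0.092 (SE), adjusted p = 0.0236 between day 6 and day 3. Without replicate 2 of day 0, the day 6 value of ELOVL6 was -0.35 and that of ACACA -0.48. With the GC and length trend removed ELOVL6 was at -0.29, above FASN (-0.37), ACACA (-0.36) and SCAP (-0.33).

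AACS (chr12:125065379-125143333, forward strand), the cytosolic synthetase that activates acetoacetate for lipid synthesis, was read at 139, 128 and 154 CPM on day 0, 233, 238 and 227 on day 3 and 201, 202 and 222 on day 6. The lowest library of the later days was above the highest day 0 library, and the log2 fold change was 0.73 ± 0.083 (SE), adjusted p = 5.12e-05 on day 3 and 0.57 ± 0.083 (SE), adjusted p = 0.00012 on day 6. AACS, MVD and FADS2 had the 3 largest log2 fold changes of the members on day 3. The plots of 9 members set these courses beside each other.

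**Figure D3:**
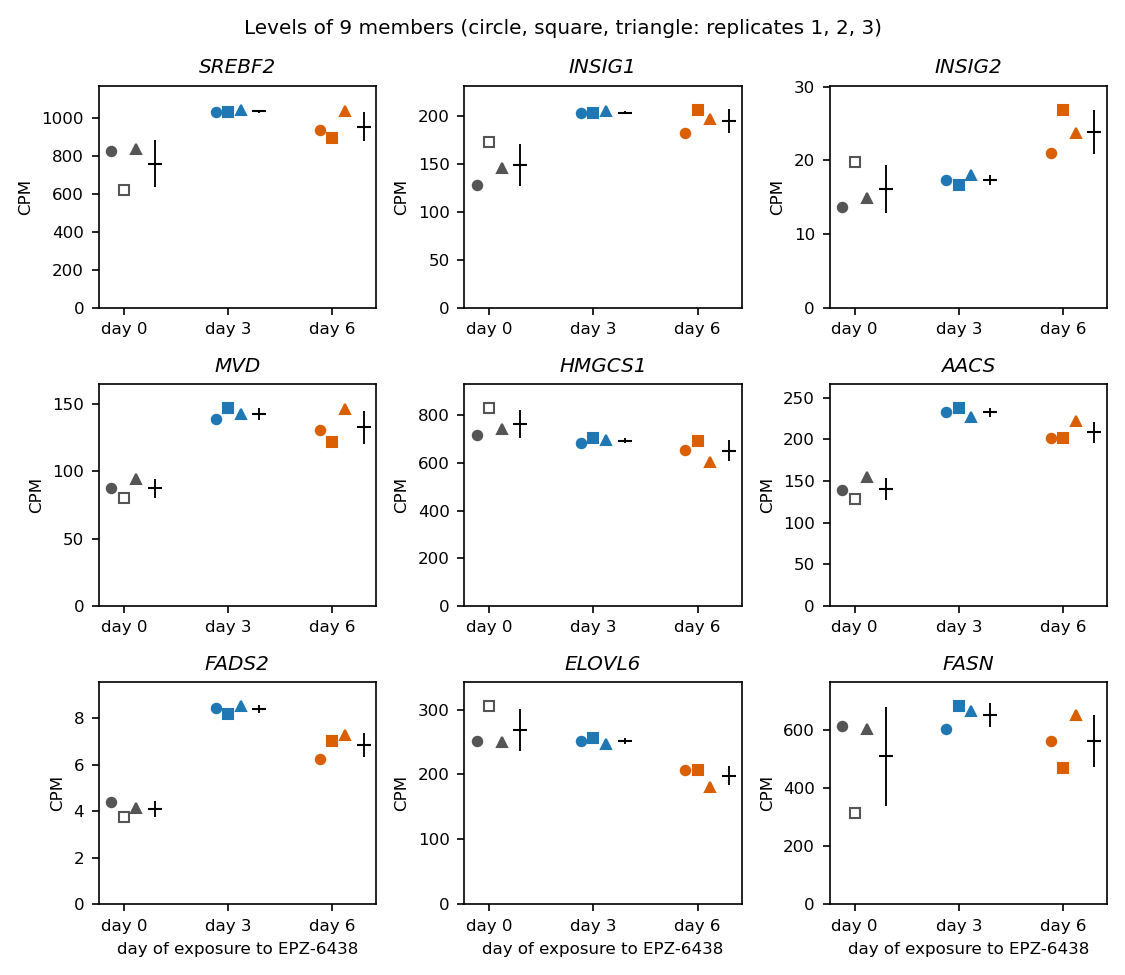
Level in CPM of SREBF2, INSIG1, INSIG2, MVD, HMGCS1, AACS, FADS2, ELOVL6 and FASN on day 0, day 3 and day 6; symbols are the 3 replicates (open square, replicate 2 of day 0), and the cross and bar beside them are the mean ± SD. MVD, AACS and FADS2 lie higher on both later days, INSIG2 and ELOVL6 depart on day 6, and FASN spans 312 to 613 CPM on day 0.

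On day 6, 16 members were higher and 3 lower than on day 0, where 28.9% and 25.7% of all genes tested were called higher and lower. DESeq2 called 16 higher and 5 lower, and limma-voom 16 and 2. Among the 10647 genes at or above the level of the least abundant member, the shares were 21.7% and 35.1%. The 16 were the 15 that rose on day 3 and INSIG2, and the 3 lower members were HMGCS1, CYP51A1 and ELOVL6. Both comparisons use the same day 0 libraries. The members' median log2 fold change was 0.23 against 0.01 over all genes tested, and 18 of 32 (56.2%) had libraries that did not overlap, against 58.7% of all genes.

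Without replicate 2 of day 0, 18 members were higher and 4 lower on day 6. Of all genes tested, 60.8% were then called in either direction, against 54.6% with all 9 libraries. Of the 19 calls, 17 were kept and those of SREBF1 and CYP51A1 were lost, while MSMO1, HSD17B7 and SC5D were called higher and ACLY and ACACA lower. With the GC and length trend removed, 15 were higher and 5 lower, and 12 of the 19 calls were kept. The log2 fold changes of 5 of these 12 were smaller by over 1.5 times in that fit. That of MVD was 0.25 in place of 0.61, that of DHCR7 0.16 in place of 0.40 and that of FADS2 0.46 in place of 0.74. ELOVL6 was at -0.29 in place of -0.44 and FDPS at 0.17 in place of 0.29. The day 6 calls of CYP51A1, HMGCS1, LSS, MVK, SREBF1, SREBF2 and TM7SF2 were lost in that fit, ACACA, ACLY, FASN and SCAP were called lower, and HSD17B7, MSMO1, SC5D and SCD were called higher. The day 6 calls that held in all 20 alternatives were those of AACS, DHCR7, ELOVL6, FADS1, FADS2, FDFT1, INSIG1, INSIG2, MVD, PMVK and STARD4. On day 3, 13 of the 15 calls held in all 20, all but those of MVK and FDFT1. The plot of log2 fold changes on both days shows the filled points of the called members and their standard errors.

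**Figure D4:**
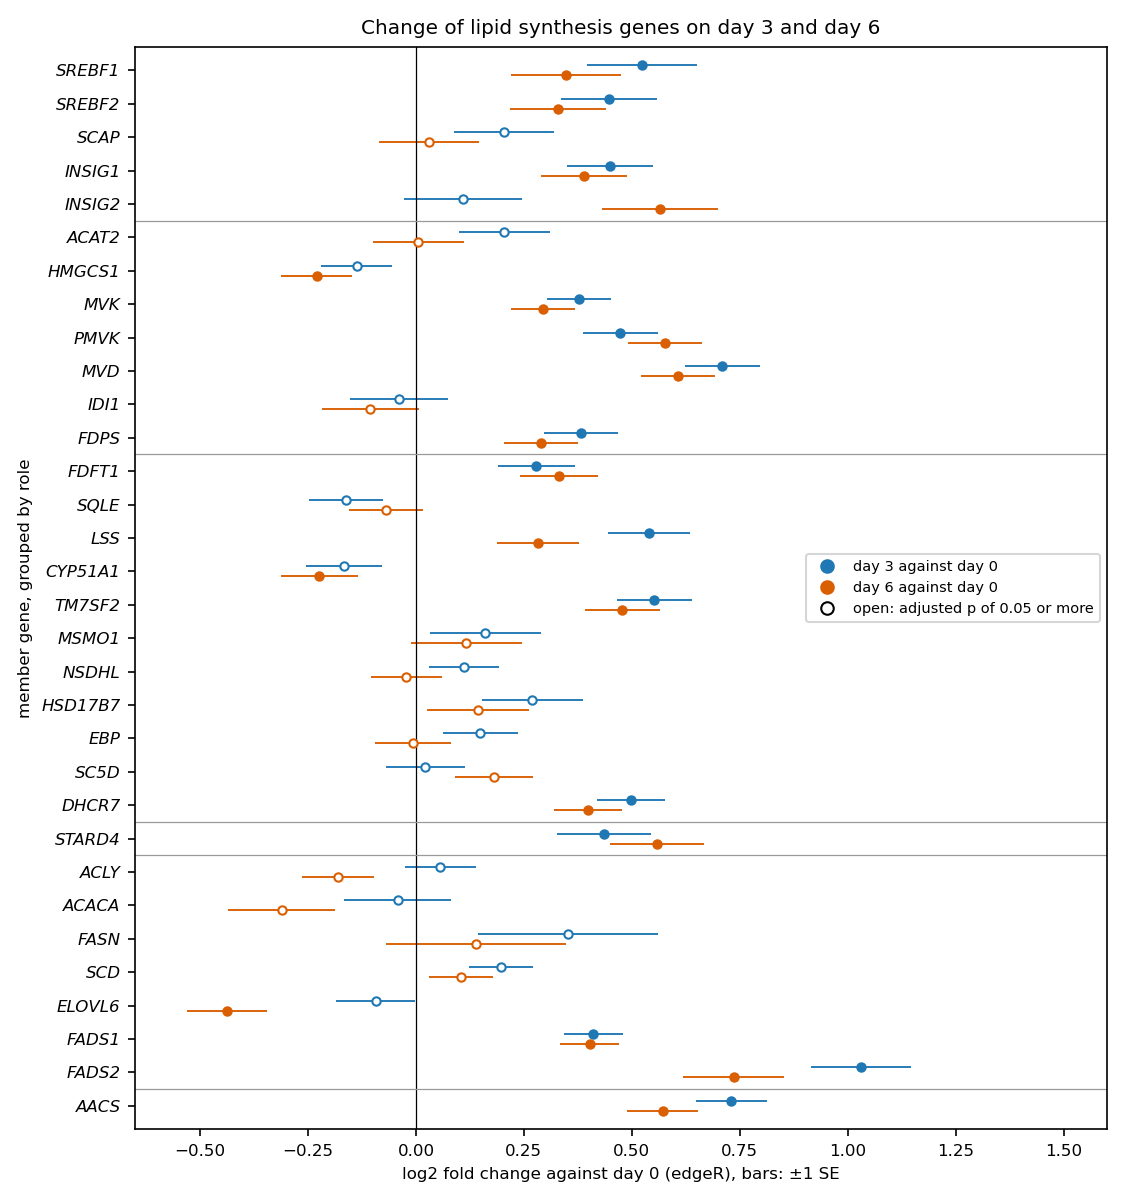
Log2 fold change of each member on day 3 (blue) and day 6 (orange) against day 0, with bars of ±1 standard error from edgeR; open points had an adjusted p of 0.05 or more. FADS2 reaches 1.03 on day 3, and ELOVL6 lies lowest at -0.44 on day 6.

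Between day 3 and day 6, 1 member rose and 1 fell, against 11.5% and 4.76% of all genes tested and 6.38% and 6.07% of those at or above the level of the least abundant member. The libraries of the 2 days did not overlap for 14 members (43.8%), against 43.5% of all genes. INSIG2 was the one that rose and ELOVL6 the one that fell. The call of INSIG2 was lost without any one day 3 library or without replicate 2 or 3 of day 6 (adjusted p 0.088 to 0.157), and that of ELOVL6 without any one day 3 library or without replicate 1 or 3 of day 6 (adjusted p 0.0502 to 0.0946). The members' median log2 change was -0.096, against -0.0013 over all genes, and 26 of 32 had a value below 0, as a description. None of the 18 sterol enzymes was called by edgeR, DESeq2 or limma-voom, and 1 was lower at an unadjusted p under 0.05. When replicate 2 of day 0 was left out, a library of neither day compared, 2 members were higher and 8 lower. In that fit 30% of all genes tested were called in either direction, against 16.3% with all 9 libraries.

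Per kilobase of exon, the members covered a wide range of levels. HMGCS1 was the highest on day 0, at 153 to 177 CPM per kb, followed by SCD at 140.02 to 154 and SREBF2 at 81.6 to 110.1. The ranges of HMGCS1 and SCD overlapped, and SREBF2 stood below both. On day 6, SCD lay at 153 to 163 and HMGCS1 at 129 to 147 CPM per kb, so the order of the leading pair was the other way round and their ranges were apart. FADS2 was the lowest throughout, at 0.339 to 0.40 CPM per kb on day 0 and 0.567 to 0.660 on day 6. Lengths are of all annotated exons, so a gene with many unused exons is understated.

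Lists of related genes are read against the shares of all genes tested, of which 22.5% were called higher and 18.1% lower on day 3 and 28.9% and 25.7% on day 6. Of 12 tested genes that process SREBP or act with it, 0 were higher and 2 lower on each day by edgeR (also 0 higher by DESeq2, limma-voom and the unadjusted p). NFYB, an NF-Y subunit, went from 125 ± 20.9 to 99 ± 1.93 and 99.9 ± 5.91 CPM (SD, n = 3) and was called lower on both days. Of 8 other sterol and ketone enzymes, 3 rose and 2 fell on day 3, and 2 rose and 1 fell on day 6. By day 6, POR, the electron donor of CYP51A1 and SQLE, rose from 76.4 ± 7.10 to 91.4 ± 7.88 CPM and ACAT1, the mitochondrial thiolase, fell from 117 ± 15.5 to 77 ± 6.80 CPM. The median log2 fold changes of these lists on day 6 were -0.094 and 0.091. With replicate 2 of day 0 left out, the first list had 0 higher and 3 lower on each day and the second 4 higher and 2 lower on day 3 and 2 and 1 on day 6. The values of NFYB were then -0.19 on both days (adjusted p = 0.0167 and 0.0162), and POR was not called on day 6 (0.18, adjusted p = 0.0503). With the GC and length trend removed, the first list had 1 higher and 1 lower on day 3 and 0 and 3 on day 6. The second had 1 and 1 on day 3 and 2 and 2 on day 6. In that fit NFYB was at -0.098 and -0.099 (adjusted p = 0.12 and 0.0978). POR was at 0.042 and -0.046 (adjusted p = 0.545 and 0.477), so neither gene was called on either day.

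Genes of the branches that leave the mevalonate pathway before squalene were lower or were not called. Of 13 genes of prenylation and of ubiquinone and dolichol synthesis, 8 fell on day 3 and 8 on day 6 and 0 rose (0 by DESeq2 and limma-voom, and 1 on day 6 at an unadjusted p under 0.05), with medians of -0.30 and -0.29 on the log2 scale. The share lower was 61.5% on each day, where 18.1% and 25.7% of all genes tested were lower, and 24.8% and 35.1% of those at or above the level of the least abundant member. Without replicate 2 of day 0, 7 were lower on each day, and 1 was higher on day 3 and 2 on day 6. Removal of the GC and length trend left 8 lower on each day, with 0 higher on day 3 and 1 on day 6. PDSS1, which with PDSS2 makes the ubiquinone side chain, was read at 27.6, 36.2 and 31.5 CPM on day 0, 17, 16.6 and 17.7 on day 3 and 18.6, 14.5 and 13.7 on day 6. All later libraries lay below all day 0 libraries, and the log2 fold change was -1.02 ± 0.13 (SE), adjusted p = 3.53e-05 on day 6. PDSS2 had a log2 fold change of -0.45 (adjusted p = 0.000345) and ICMT, which methylates prenylated proteins, of -0.61 (adjusted p = 4.24e-05).

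Of 15 genes of sterol uptake and transport, 4 rose and 0 fell on day 3, where 22.5% of all genes tested were higher (1 lower by DESeq2, 0 by limma-voom and 1 at an unadjusted p under 0.05), and 6 rose and 1 fell on day 6. GRAMD1A, which carries cholesterol from the plasma membrane to the endoplasmic reticulum, was read at 6.40, 5.32 and 5.36 CPM on day 0, 13.2, 12.4 and 13.3 on day 3 and 37.7, 39.7 and 47.3 on day 6. The 3 days did not overlap, and the log2 change was 2.86 ± 0.11 (SE), adjusted p = 4.43e-09 on day 6 and 1.68 ± 0.11 (SE), adjusted p = 1.05e-06 between day 3 and day 6. GRAMD1B rose from 0.622 ± 0.0581 to 2.59 ± 0.449 CPM and GRAMD1C from 5.41 ± 1.02 to 10.3 ± 1.76 CPM by day 6, and neither was called on day 3. STARD5, a sterol-binding relative of STARD4, lay at 0.0327, 0.128 and 0 CPM on day 0, where 3 counts make 0.098 to 0.141 CPM, and at 1.92, 1.51 and 1.90 on day 6. Of 9 genes of sterol efflux, esterification and the LXR receptors, which sense oxysterols, 7 rose and 0 fell on day 3 (0 by DESeq2, limma-voom and the unadjusted p), and 5 rose and 1 fell on day 6. ABCG1, a sterol exporter and LXR target, was read at 22.2, 19.4 and 22.2 CPM on day 0, 38.3, 36.5 and 40.1 on day 3 and 33, 32.6 and 36.8 on day 6, a log2 fold change of 0.85 ± 0.086 (SE), adjusted p = 2.27e-05 on day 3. NCEH1, which frees cholesterol from its esters, had a log2 fold change of 0.96 (adjusted p = 3.53e-05) on day 6 and NR1H2, the gene of LXR beta, of 0.54 (adjusted p = 0.00263). The median log2 fold change was 0.17 on day 3 and 0.071 on day 6 for the uptake list and 0.48 and 0.43 for the efflux list, against 0.01 over all genes tested on both days. When replicate 2 of day 0 was left out, the uptake list had 5 higher and 1 lower on day 3 and 6 and 3 on day 6, and the efflux list 7 and 0 on day 3 and 5 and 0 on day 6. Once the GC and length trend was removed, the uptake list had 5 and 3 on day 3 and 7 and 4 on day 6. In that fit the efflux list had 4 and 0 on day 3 and 4 and 1 on day 6.

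On the fatty acid side, 8 of 23 other synthesis genes rose and 4 fell on day 3, and 9 rose and 5 fell on day 6, where 22.5% of all genes tested were higher and 18.1% lower on day 3 and 28.9% and 25.7% on day 6. MLXIPL, the gene of the carbohydrate-responsive factor ChREBP, was read at 16.2, 15 and 14.3 CPM on day 0, 48.1, 38.3 and 37.8 on day 3 and 53.6, 53.1 and 63 on day 6. No libraries of the 3 days overlapped, and the log2 fold change was 1.90 ± 0.11 (SE), adjusted p = 8.75e-08 on day 6. FADS3, the third gene of the FADS cluster, had a log2 fold change of 1.64 (adjusted p = 5.05e-07) on day 6 and ACSS2, which activates acetate, of 0.68 (adjusted p = 1.41e-05). ELOVL3 rose from 0.0980, 0.0425 and 0.282 CPM on day 0 to 1.75, 1.85 and 1.64 on day 6. Of 18 genes of fatty acid activation and glycerolipid synthesis, 9 rose and 1 fell on day 3, and 9 rose and 2 fell on day 6. LPIN1, a phosphatidate phosphatase, rose from 19.7 ± 0.810 to 29.7 ± 1.01 and 45.4 ± 2.68 CPM. On the log2 scale AGPAT2, an acyltransferase, rose by 1.07 (adjusted p = 2.13e-06) and PLIN3, a lipid droplet coat protein, by 0.91 (adjusted p = 4.47e-06), while GPAM, the mitochondrial acyltransferase that starts the pathway, fell from 44.4 ± 3.80 to 25.3 ± 2.25 CPM. Of 16 genes of fatty acid oxidation, 5 rose and 5 fell on day 3, and 5 rose and 6 fell on day 6, and the 5 higher on day 6 are a share near the 28.9% of all genes. On the log2 scale on day 6, PPARA, the nuclear receptor of fatty acid oxidation, rose by 1.09 ± 0.13 (SE), adjusted p = 2.97e-05 and the mitochondrial dehydrogenases ACADS and ACADVL by 0.84 and 0.57 (adjusted p = 2.09e-05 and 2.59e-05). Median log2 fold changes on day 3 and day 6 were 0.059 and -0.060 for the other synthesis genes, 0.28 and 0.38 for activation and glycerolipids, and 0.053 and 0.063 for oxidation. With replicate 2 of day 0 left out, the 3 lists had 10 higher and 4 lower, 9 and 1, and 5 and 5 on day 3, and 9 and 6, 10 and 3, and 6 and 5 on day 6. After removal of the GC and length trend they had 10 and 4, 7 and 2, and 5 and 5 on day 3. On day 6 they then had 10 and 7, 6 and 3, and 7 and 6. These lists were not used to choose the members and were not tested as sets.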

How the data were processed

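Poly-A RNA from 9 TYUC-1 libraries was sequenced after TRIzol extraction and TruSeq library construction, per the labels' protocols. The deposited table holds estimated counts, whole numbers that were not scaled to a common total. Per the submitters' processing notes, kallisto 0.44.0, bcl2fastq 2.19 and DESeq2 were used, with the builds GRCh38, GRCm38 and hg38, all without a stated role. The use of strand and the summing of transcripts to genes are not given in the sources used here.

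Counts were rounded, scaled by TMM, filtered by filterByExpr (minimum count 10) and tested with edgeR 4.0.16 under R 4.3.3 by the quasi-likelihood F-test, with 1 mean per day over all 9 libraries and Benjamini-Hochberg adjustment over 15345 genes at 0.05. The procedure was tested on simulated data. DESeq2 1.42.0, limma-voom (limma 3.58.1), other scalings and filters, leaving out each library, a replicate block and a GC and length trend (loess span 0.4; values for 97.3% of genes) were alternatives. Replicates are biological per the labels. Each p-value sets the difference between 2 days against the spread between these replicates, all from 1 cell line. Coordinates and lengths are from GENCODE release 29 on GRCh38, 1-based. Members and lists were chosen with earlier results of these data known. All 32 members are accounted for. From each related list, up to 4 genes with the lowest adjusted p on day 6 against day 0 and no overlap are named, or the 2 most abundant where none passed. Some genes that this rule picks are not reported here.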

Additional observations from a re-analysis of the deposited data

How the results depend on the processing

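The precision is limited by 3 libraries per day and by replicate 2 of day 0, while 3 counts make 0.098 to 0.141 CPM, well below every member. Over the 20 alternatives, 13 of 15 member calls on day 3 and 11 of 19 on day 6 held in all of them, and neither call between day 3 and day 6 did. Over the alternatives other than the GC and length trend, 1719 member values stayed on their side of the threshold, 49 newly passed it and 56 no longer passed it. Of values called in the main fit or the alternative, 0 reversed. Changes of sign in values called in neither were not counted. The cause of these differences was not tested.

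With the GC and length trend removed, chosen after seeing the data, 3 day 6 values called in that fit or the main one reversed. They went to -0.37 for FASN, -0.33 for SCAP and -0.026 for SREBF1. Values called in neither fit also changed sign, such as that of IDI1 on day 6, from -0.11 to 0.12. Members lower on day 6 against day 0 numbered 1 with library size scaling, with a mean of at least 5 CPM, with only the 2 days compared and at an adjusted p under 0.01, and 5 with DESeq2 and again once the GC and length trend was removed. Against day 3, members lower on day 6 numbered 2 with DESeq2, 6 with only the 2 days compared, 0 at an adjusted p under 0.01 and 9 after the GC and length trend was taken out, and members higher numbered 2, 0 and 2 under the last 3. Over all genes, the calls on day 3 fell from 6225 to 3860 at an adjusted p under 0.01. Between day 3 and day 6 they went from 2497 to 1251 with a mean of at least 5 CPM, 4331 with only the 2 days compared, 1444 at an adjusted p under 0.01 and 4149 after that trend was taken out.

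Leaving out 1 library at a time, all genes called ranged from 4653 to 7289 on day 3, 7268 to 9496 on day 6 and 1606 to 4681 between them. Members higher ranged from 14 to 22, 12 to 18 and 0 to 2, and members lower from 0 to 1, 1 to 4 and 0 to 8. The highest count of members higher on day 3 and of members lower on day 6 came without replicate 2 of day 0.

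Scaling by library size alone moved the median log2 fold change of all genes from 0.015 to 0.094 on day 3 and from 0.013 to 0.13 on day 6. It raised the share of calls that were higher from 55.3% to 69.2% on day 3 and from 53.0% to 66.6% on day 6. Between day 3 and day 6 that share was 70.7%, and it was 57.9% with only the 2 days compared, 57.3% after the GC and length trend was taken out and 55.4% without replicate 2 of day 0.

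Deviations of same-numbered libraries from their day means had correlations from -0.16 to 0.229 over 11041 genes, and those of other pairs from -0.273 to 0.254. Of the 9 libraries, 3 correlated best with their own number. With 3 libraries a day this cannot show whether the numbers pair the samples, which the labels do not say. With a replicate block, 16 members were higher and 0 lower on day 3, 16 and 3 on day 6, and 1 and 1 between them.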
